A study of Mus musculus with 21 samples.

Results

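Neurofilaments, spectrins and ankyrins form the scaffold inside the axon and beneath its membrane. The mRNAs of 8 genes of this scaffold were followed by name: Nefl, Nefm, Nefh, Ina, Sptan1, Sptbn1, Ank2 and Ank3, all of which were among the 5544 genes of the deposited table. The libraries came from the cortex of male wild-type C57BL/6 mice aged 12 weeks (the J substrain in the study's methods), taken 24 h after the last procedure. In the 10 sham libraries the mice had the same handling and isoflurane anesthesia but no impact, and in the 11 high-frequency head impact (HF-HI) libraries they had repeated impacts on successive days. The comparison asks how this scaffold's mRNA stood in the cortex a day after the injury.

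Neurofilaments are heteropolymers that fill large axons. Light (Nefl), medium (Nefm) and heavy (Nefh) subunits assemble with alpha-internexin (Ina) in the mature central nervous system, and the medium and heavy subunits carry long phosphorylated tails that project from the filament. Spectrin tetramers of an alpha chain (Sptan1) and a beta chain (Sptbn1) link short actin filaments into the periodic lattice below the axonal membrane. Ankyrins tie that lattice to membrane proteins: ankyrin-B (Ank2) along the axon shaft, and ankyrin-G (Ank3) at the axon initial segment and the nodes of Ranvier. Neurofilament light released from axons, and spectrin cut by calpain, are widely used as protein markers of axonal injury. All values here are of mRNA, and no protein was measured.

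Within this scaffold, Ina, Nefh, Nefm and Ank3 mRNA rose after HF-HI, Sptan1 and Ank2 fell slightly, and no difference was called for Nefl or Sptbn1. Thus 6 of the 8 genes passed the test (4 higher, 2 lower), beside 66.3% of all genes tested, 32.6% called higher and 33.6% called lower. Two-sided calls were made with limma at an adjusted p (Benjamini-Hochberg over all genes) under 0.05. In 2 of the 8 genes, Ina and Ank3, the lowest HF-HI value exceeded the highest sham value, as in 8.71% of all genes. The converse, every HF-HI library below every sham library, held for none of the 8 genes and for 4.76% of all genes. A share of 6 in 8 called is near the background. In absolute size, the differences of Ina, Nefh, Nefm and Ank3 lay between the 84.8th and 98.7th percentiles of all genes. Those of Ank2, Sptan1, Sptbn1 and Nefl lay between the 1.26th and 38.4th percentiles. In bulk cortex, a change in the number of cells of a type and a change in RNA per cell cannot be told apart.

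A few sequences show what can and cannot be read from such values, because the counting of reads depends on them. The genes Nefl (chromosome 14, 68083863 to 68089095, plus strand) and Nefm (chromosome 14, 68082590 to 68124846, minus strand) overlap in the GENCODE annotation of GRCm38, the build of the reads (mm10). One of the 2 annotated Nefm transcripts ends in an exon that covers 1108 bases of the first exon of Nefl on the opposite strand. Of these, 144 bases are coding in both, and the plus strand of that stretch, chr14:68084827-68084970, is shown here because its reads, like those of all 1108 bases, belong to either gene unless strand is used.
Nefl coding overlap: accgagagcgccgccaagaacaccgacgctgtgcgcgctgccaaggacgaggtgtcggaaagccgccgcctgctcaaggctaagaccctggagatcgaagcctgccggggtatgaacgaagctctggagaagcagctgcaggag
The library kit keeps the strand of the RNA, but whether the counting used it is not given in the sources used here. The values of Nefl and Nefm are therefore uncertain to the extent that reads in the 1108 bases were split between them.

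Start sites were looked up in RefSeq promoter windows of GRCm38.p6, each 300 bases from 250 before to 50 after a start. These windows were found for 4 of the 8 genes (Ina, Sptan1, Ank2 and Sptbn1). The windows of Ina, the member that rose most, and of Sptan1, which fell, are shown. Their GC content was 71.7% and 73.3%, against a median of 52.7% over 32851 promoters. The windows of Ank2 and Sptbn1 ran from 45.0% to 62.7%. A relation between the GC content of starts and the changes was not tested. Capitals mark the letters GGGCGG or CCGCCC (a GC box on either strand).
Ina promoter: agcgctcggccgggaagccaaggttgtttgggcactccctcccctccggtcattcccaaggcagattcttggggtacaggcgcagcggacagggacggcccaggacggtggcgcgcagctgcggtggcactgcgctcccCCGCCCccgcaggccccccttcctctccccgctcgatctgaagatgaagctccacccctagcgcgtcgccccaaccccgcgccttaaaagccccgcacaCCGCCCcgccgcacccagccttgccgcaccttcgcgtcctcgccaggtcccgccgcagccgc
Sptan1 promoter: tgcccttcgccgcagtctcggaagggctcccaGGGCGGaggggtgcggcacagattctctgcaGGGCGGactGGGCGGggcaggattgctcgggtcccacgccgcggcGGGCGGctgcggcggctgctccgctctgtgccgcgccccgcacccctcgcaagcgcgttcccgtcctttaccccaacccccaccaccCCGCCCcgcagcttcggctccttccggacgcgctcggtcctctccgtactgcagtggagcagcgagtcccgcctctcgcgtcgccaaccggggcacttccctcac
The Ina window (chr19:47014431-47014730, plus strand) held 2 of these boxes and the Sptan1 window (chr2:29965310-29965609, plus strand) held 5. A GC box was present in 35.7% of all promoter windows, and neither window held CCAAT or TATAAA on either strand, which 37.4% and 13.6% of all windows did. The first of 4 windows of Ank2 (chr3:127499066-127499365, minus strand) is shown as a contrast, with TATAAA and ATTGG, the reverse complement of CCAAT, in capitals.
Ank2 promoter: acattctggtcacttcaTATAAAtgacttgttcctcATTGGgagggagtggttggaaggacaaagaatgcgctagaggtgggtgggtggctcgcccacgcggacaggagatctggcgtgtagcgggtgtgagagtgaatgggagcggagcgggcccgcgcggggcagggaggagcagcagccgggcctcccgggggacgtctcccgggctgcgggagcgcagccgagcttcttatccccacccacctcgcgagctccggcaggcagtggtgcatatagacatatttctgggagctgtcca
These matches describe the letters only.

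Ina, the neurofilament subunit of the central nervous system, changed most of the 8 genes. Its variance-stabilized value, which is on a log2 scale, ran from 9.31 to 9.85 with a median of 9.66 in the sham libraries and from 10.31 to 10.60 with a median of 10.45 in the HF-HI libraries. The groups did not overlap. The mean rose from 9.61 ± 0.17 (SD, n = 10) to 10.45 ± 0.10 (SD, n = 11), a log2 difference of 0.84 with a standard error (SE) of 0.056, or 1.79-fold (95% confidence interval 1.65 to 1.95, adjusted p = 9.03e-11 from limma). In size this difference was at the 98.7th percentile of all genes, whose median absolute difference was 0.16. The deposited values understate folds of weakly expressed genes, since variance stabilization compresses low counts.

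Nefh, the heavy subunit, was the lowest of the 8 genes, at the 9.36th percentile of mean level among all genes. Its value was 8.13 to 8.74 (median 8.43) in sham and 8.74 to 9.15 (median 8.91) in HF-HI. All but 1 of the 11 HF-HI libraries exceeded the highest sham value, and the exception, HF-HI replicate 3 at 8.737, was just under sham replicate 6 at 8.741. The difference was 0.48 (SE 0.064, 1.39-fold, adjusted p = 1.04e-06 from limma). Nefm, the medium subunit, ran from 9.58 to 10.12 (median 9.74) in sham and from 9.96 to 10.51 (median 10.13) in HF-HI. The ranges overlapped, with 6 HF-HI libraries above every sham library and all 11 above the sham median. The difference was 0.37 (SE 0.071, 1.29-fold, adjusted p = 1.06e-04 from limma).

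Nefl, the light subunit on which the polymer is built, had no called difference. The sham libraries ran from 12.48 to 12.87 (median 12.70) and the HF-HI libraries from 12.59 to 12.87 (median 12.67). The difference was −0.0039 (95% confidence interval −0.10 to 0.093, adjusted p = 0.945 from limma). Thus, on the deposited scaling, changes beyond about 1.07-fold in either direction lie outside the interval (0.933 to 1.07). The interval depends on that scaling: with library medians centred the difference was −0.056 (adjusted p = 0.310 from limma), also not called. HF-HI replicate 9 held the highest value of that group for both Nefl and Nefm.

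Ank3, whose giant isoforms anchor sodium channels at the axon initial segment, was the other gene without overlap. Its value was 13.10 to 13.39 (median 13.26) in sham and 13.46 to 13.71 (median 13.62) in HF-HI. The difference was 0.34 (SE 0.040, 1.26-fold, adjusted p = 2.17e-07 from limma). Its relative Ank2 went the other way: 13.46 to 13.58 (median 13.52) in sham and 13.22 to 13.51 (median 13.42) in HF-HI, with 8 of 11 HF-HI libraries below every sham library. The difference of −0.12 (SE 0.032, 0.922-fold, adjusted p = 0.0028 from limma) was smaller than the median absolute difference of all genes. The SD of Ank2 was 0.038 in sham and 0.088 in HF-HI, and HF-HI replicates 11 and 4 held the lowest values. The annotation lists 27 transcripts for Ank2 and 47 for Ank3, and the table gives 1 value a gene, so the isoforms were not separated.

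Sptan1, the main alpha spectrin of neurons, stood at 14.52 to 14.63 (median 14.59) in sham and 14.41 to 14.55 (median 14.50) in HF-HI. Of the 11 HF-HI libraries, 8 lay below every sham library and all 11 below the sham median. The fall was small, with a difference of −0.096 (SE 0.024, 0.936-fold, adjusted p = 0.00123 from limma). Sptbn1, its main beta partner, ran from 14.38 to 14.58 (median 14.49) in sham and from 14.49 to 14.58 (median 14.54) in HF-HI. The ranges overlapped, and the difference was 0.048 (95% confidence interval −0.0095 to 0.11, adjusted p = 0.131 from limma), which was not called.

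**Figure D1:**
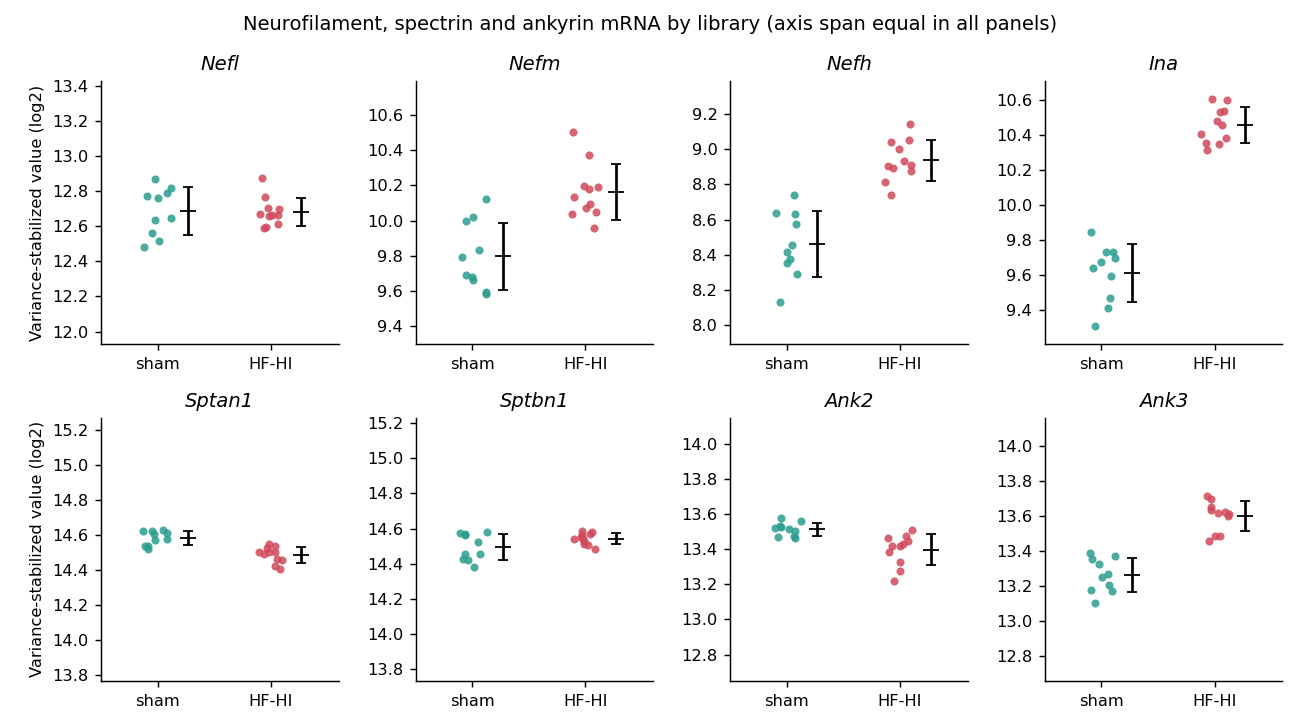
Variance-stabilized values (log2, vertical axes, all spanning the same length) of the 8 genes in each of the 10 sham and 11 HF-HI libraries. Points are libraries and the bar beside them is the mean ± SD. Ina and Ank3 show no overlap between the groups, Nefh and Nefm are shifted up, and the points of Nefl and Sptbn1 intermix.

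The libraries of the groups also differed in a property that touches these genes. Within a library, values of genes depended on the GC content of their exons: the slope per 10% of GC ran from −0.23 to 0.0058 in sham and from −0.039 to 0.16 in HF-HI (p = 4e-05, two-sided permutation test). The 3 neurofilament genes that rose have GC-rich exons: 58.4% in Nefh, 55.5% in Ina and 54.4% in Nefm, against 48.8% in Nefl and a median of 47.6% over all genes. Over all genes of the same 2% band of GC, the median difference was 0.18 around Ina and Nefm and 0.27 around Nefh, lower than the values of all 3 genes. With the GC trend of each library removed, the differences were 0.67 for Ina, 0.23 for Nefh (adjusted p = 0.0137) and 0.22 for Nefm (adjusted p = 0.0253 from limma), so the values of Nefh and Nefm were over 1.5 times smaller. With the trend on exon length removed as well, Ina was at 0.72, Nefh at 0.25 (adjusted p = 0.00816) and Nefm at 0.18 (adjusted p = 0.0686 from limma), no longer called.

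Ank3, at 47.2% GC, was at 0.34 as before with the GC trend removed, and at 0.25 with both trends removed. Sptan1 (50.4% GC) fell further, to −0.16 and −0.24. Ank2 (45.0% GC) was at −0.074 with the GC trend removed, where it was not called (adjusted p = 0.0523 from limma), and at −0.16 with both removed. Sptbn1 (45.9% GC) was called higher with the GC trend removed (0.079, adjusted p = 0.0142 from limma) and not with both (0.0044). Nefl was not called with either. Whether the GC and length trends arose in the tissue or in library preparation was not tested. The study's methods say that libraries were sequenced in pools. The pool of each library is not given in the sources used here, so an effect of pools was not tested.

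**Figure D2:**
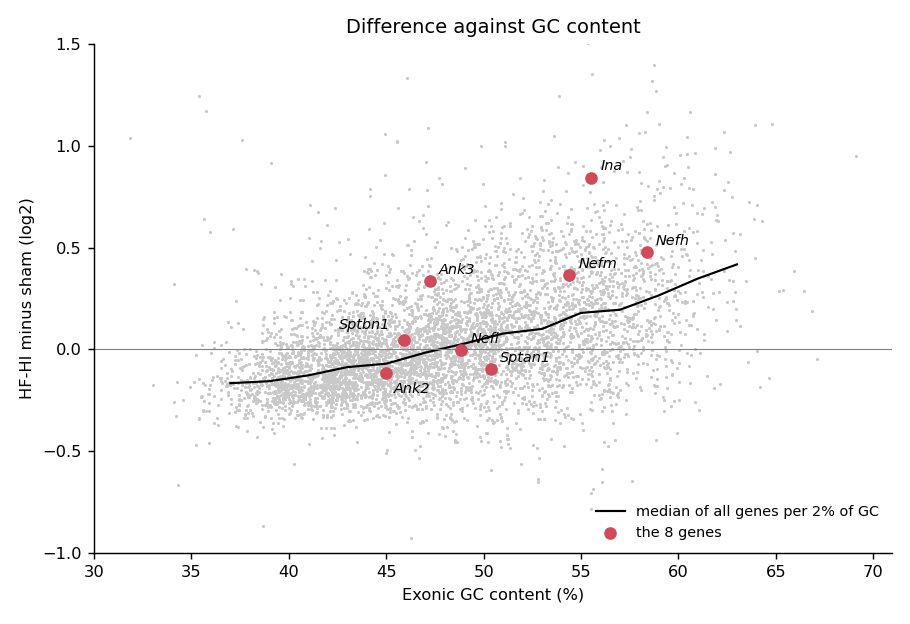
HF-HI minus sham difference (log2, vertical axis) of each gene against the GC content of its exons (percent, horizontal axis), with the 8 genes in red and the median of all genes per 2% of GC as a black line. The line rises with GC, and Ina, Nefh, Nefm and Ank3 stand above it while Sptan1 and Ank2 lie below. 9 genes lie outside the plotted range of −1 to 1.5.

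**Figure D3:**
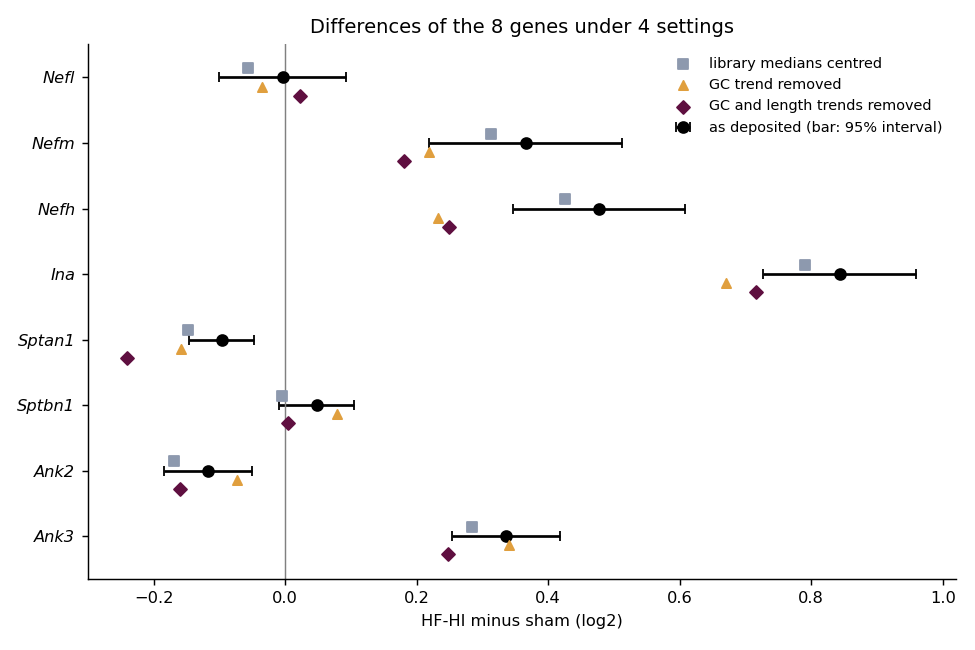
HF-HI minus sham differences (log2, horizontal axis) of the 8 genes as deposited, with 95% confidence intervals as bars, and under 3 other settings. Ina, Nefh, Nefm and Ank3 stay above 0 and Sptan1 and Ank2 below 0 under all 4 settings, while Nefl and Sptbn1 lie close to 0, on either side of it by setting.

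A difference between 2 genes within one library does not depend on how the library was scaled, so 6 pairs within families were compared by permutation of the library labels (100000 resamples, two-sided, adjusted over the 6 pairs). Nefm relative to Nefl lay between −3.19 and −2.70 on the log2 scale in sham and between −2.64 and −2.29 in HF-HI, without overlap. This gap thus narrowed by 0.37 (SE 0.058). Ina relative to Nefl shifted by 0.85 (SE 0.095), from between −3.46 and −2.75 to between −2.56 and −2.01, again without overlap. Nefh relative to Nefl shifted by 0.48 (SE 0.079), with 9 of 11 HF-HI libraries above the sham range. The adjusted p from the permutation test was 2e-05 for the pairs without overlap, whose unadjusted p was 1e-05, the smallest these resamples can give, and 4.5e-05 for Nefh against Nefl. Against the light subunit, then, each of the other subunits stood higher after HF-HI. Since Nefl itself differed by only −0.0039, these shifts largely repeat the differences of Nefm, Ina and Nefh. The share of other gene pairs that would pass was not computed, and 66.3% of single genes were called. With the GC and length trends removed the shifts were 0.16, 0.69 and 0.23 in the same order, all with adjusted p under the threshold.

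Between the subunits with long tails no difference was called: Nefh relative to Nefm shifted by 0.11 (SE 0.081, adjusted p = 0.183, permutation test), and without HF-HI replicate 9, whose gap was the widest of that group at −1.61, it shifted by 0.15 (adjusted p = 0.0476, permutation test). The shift was 0.013 with the GC trend removed (adjusted p = 0.870, permutation test), and with both trends removed 0.068 (adjusted p = 0.411, permutation test). In the spectrins, Sptbn1 relative to Sptan1 ran from −0.19 to 0.042 in sham and from −0.051 to 0.15 in HF-HI, a shift of 0.14 (SE 0.029, adjusted p = 1.2e-04, permutation test). This shift was larger, at 0.24, both with the GC trend removed and with length removed as well. In the ankyrins, the difference Ank3 minus Ank2 ran from −0.41 to −0.12 in sham and from 0.039 to 0.42 in HF-HI, without overlap. The values are not per length, so only the shift of 0.45 (SE 0.050) between groups can be read from them. It was 0.41 with the GC trend removed and with the GC and length trends removed.

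**Figure D4:**
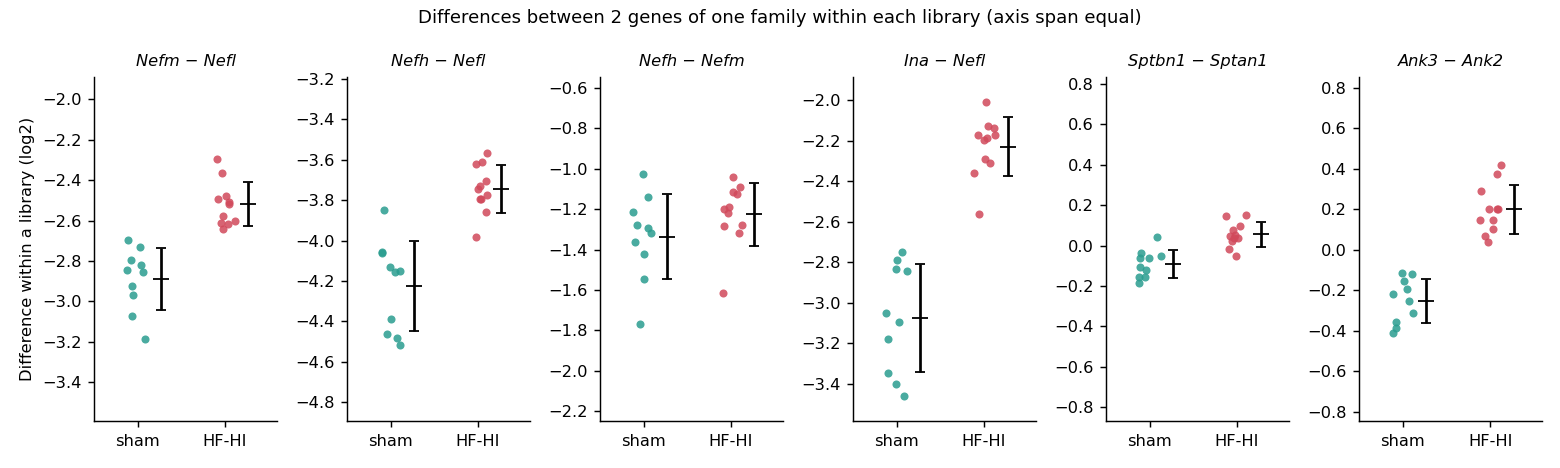
Difference between 2 genes of one family within each library (log2, vertical axes, all spanning the same length) for the 6 pairs, with libraries as points and the mean ± SD beside them. The pairs Nefm and Nefl, Ina and Nefl, and Ank3 and Ank2 show no overlap between sham and HF-HI, while Nefh and Nefm intermix.

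Levels can be set side by side between genes only per length. On the log2 scale per kb of exon (the union of all annotated exons), the order of mean levels in sham was Nefl 10.93, Sptan1 10.84, Sptbn1 10.37, Ank2 8.39, Ank3 8.14, Ina 7.91, Nefm 7.27 and Nefh 6.46. The ranges over libraries overlapped between Nefl and Sptan1 and between Ank3 and Ina, and not between the other neighbours. In HF-HI the order was Nefl 10.92, Sptan1 10.75, Sptbn1 10.41, Ina 8.76, Ank3 8.47, Ank2 8.27, Nefm 7.63 and Nefh 6.94, and only Ank3 and Ank2 overlapped among neighbours. Ina thus moved from below both ankyrins to above both. That move depends on the length used: per kb of the longest transcript, Ank3 (9.95 in sham, 10.28 in HF-HI) and Ank2 (9.68 and 9.56) stood above Ina (7.91 and 8.76) in both groups. The rest of the order depends on it too: per kb of the longest transcript, Sptan1 (11.58) and Sptbn1 (11.31) stood above Nefl (10.93) in sham, Ank3 stood above Ank2, and Nefm (7.92) was level with Ina.

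The 8 genes were also compared with each other across the libraries of each group. Of 56 correlations (28 pairs in each group, permutation p with 100000 resamples, adjusted over the 56), none passed in sham by Pearson's r, and 1 passed in HF-HI: Sptan1 with Ank2 (r = 0.88, permutation p = 5.6e-04, adjusted p = 0.0314, n = 11). Its Spearman's rho was 0.67 (permutation p = 0.0278, adjusted p = 0.498), and r was 0.64 without the 2 libraries farthest from the median of Sptan1. HF-HI replicates 11 and 4 were lowest in both genes. Other pairs had high r that did not pass with 10 or 11 libraries: Nefm with Sptbn1 (r = 0.79, adjusted p = 0.181, permutation test) and Ina with Ank3 (r = 0.72, adjusted p = 0.283, permutation test) in sham, and Nefl with Nefm (r = 0.76, adjusted p = 0.181, permutation test) in HF-HI. For Sptan1 with Ank2 in HF-HI, with the GC trend removed, r was 0.70 (adjusted p = 0.263, permutation test), so the relation was not called there, and in sham r was 0.36 (permutation p = 0.296, adjusted p = 0.788).

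The genes whose deviations from their group means followed each member best over the 21 libraries give a description only, since all points share the libraries, their depth and their GC slope. Nefl was most like Cab39 (r = 0.89), Lamp5 and Ghitm. Nefm was most like Atp8a2 (r = 0.87), Inpp4a and Gtf2a1. Nefh was most like Aplp2 (r = 0.88), a relative of the amyloid precursor protein, Hspa12a and Ppp2cb. Ina was most like Wbp2 (r = 0.86), the glutamine transporter Slc38a1 and Rab11fip5. Ank3 was most like Cntnap1 (r = 0.89), the paranodal protein Caspr, then Cyfip2 and Dlg4, which encodes the postsynaptic scaffold PSD-95. Sptbn1 was most like Gripap1 (r = 0.92), Cnn3 and Selenok. For Sptan1 (Ckmt1, r = 0.76, Tpi1 and Ap2m1) and Ank2 (Pfkp, r = 0.73, Sqstm1 and Stx6) the likeness was weaker.

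Genes that work with this scaffold were taken from 5 lists. Over all lists, 26 of 55 tested genes were called higher and 12 lower, beside 32.6% and 33.6% of all genes, and with the GC trend removed 15 were higher and 18 lower. With library medians centred, which shifted the median of all genes by −0.052, 18 were higher and 17 lower. The medians below stand beside a median of −0.0086 over all genes.

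Among other spectrins and the membrane skeleton, 12 of the 16 genes tested rose, 1 fell and 3 were not called (median 0.19). Sptbn4, the beta-IV spectrin of initial segments and nodes, rose by 0.57 (SE 0.073), and Sptb, the erythroid-type beta spectrin, by 0.44 (SE 0.052). Of the proteins that act where actin joins spectrin, Dmtn (dematin) rose by 0.54 (SE 0.064) and Add1 (alpha-adducin) by 0.45 (SE 0.060). Add2 rose by 0.26 (SE 0.067), whereas Add3 fell by 0.091 (SE 0.028). Epb41l2, which joins spectrin and actin to membrane proteins, rose by 0.26 (SE 0.042). Groups did not overlap for Dmtn, Add1 and Epb41l2. With the GC trend removed, Sptbn4 was at 0.20, Sptb at 0.24, Dmtn at 0.44 and Add1 at 0.40, and 7 genes were called higher and 2 lower. With the length trend removed as well, Sptbn4 (0.11) and Add2 (0.11) were no longer called, while Sptb (0.15), Dmtn (0.37), Add1 (0.35) and Epb41l2 (0.26) were.

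Of 22 partners of ankyrin, 8 rose, 8 fell and 6 were not called (median 0.012), shares near those of all genes. With the GC trend removed, 6 were higher and 10 lower (median −0.064). Ank1, the remaining ankyrin, rose by 0.60 (SE 0.043) without overlap and was at 0.41 with the GC trend removed. Higher, too, were Nfasc, the adhesion protein of initial segments and nodes (0.41, SE 0.062), and Cntnap1 (0.39, SE 0.058). Chl1, an L1-family adhesion protein that binds ankyrin, fell most (−0.24, SE 0.036) and without overlap. Among sodium channel alpha subunits, Scn8a, the main channel of mature nodes, rose by 0.26 (SE 0.050), whereas Scn2a (−0.18), Scn1a (−0.15) and Scn3a (−0.15) were lower. These last 3 were named after their values were seen, and their exons are GC-poor (40.5% to 42.1%). Scn8a was at 0.18 and still called with the GC trend removed, and at 0.098 and not called with length removed as well. With the GC trend removed, Scn2a was at −0.086 and still called, and Scn1a (−0.055) and Scn3a (−0.032) were not. Scn4b, a beta subunit, was not called (−0.19, adjusted p = 0.116 from limma). It was called lower with the GC trend removed (−0.34) and with length removed as well (−0.35).

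Of 9 neurofilament kinases and turnover genes, 4 rose, 1 fell and 4 were not called (median −0.019). Cdk5r2 (p39), an activator of the kinase Cdk5, rose by 1.10 (SE 0.10) without overlap, whereas Cdk5 itself, which phosphorylates neurofilament tails, fell by 0.15 (SE 0.040). Gsk3b, another tail kinase, rose by 0.39 (SE 0.040) without overlap, at a GC content of 45.2%. With the GC trend removed, Cdk5r2 was at 0.72, Gsk3b at 0.43 and Cdk5 at −0.27. Of 5 other filament and cross-linker genes tested (6 of the 11 listed, Vim and Prph among them, are not among the 5544 genes), Plec (plectin) rose by 0.38 and Gfap, the astrocyte filament, by 0.29 (SE 0.11, adjusted p = 0.0258 from limma), while Macf1, a giant spectraplakin, fell by 0.22 (SE 0.021) without overlap. Plec was at 0.063 and Gfap at 0.19 with the GC trend removed, neither called, and with length removed as well Plec was at −0.062, not called. Of 3 calpain genes tested, 1 fell (Capn7, −0.12) and none rose.

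**Figure D5:**
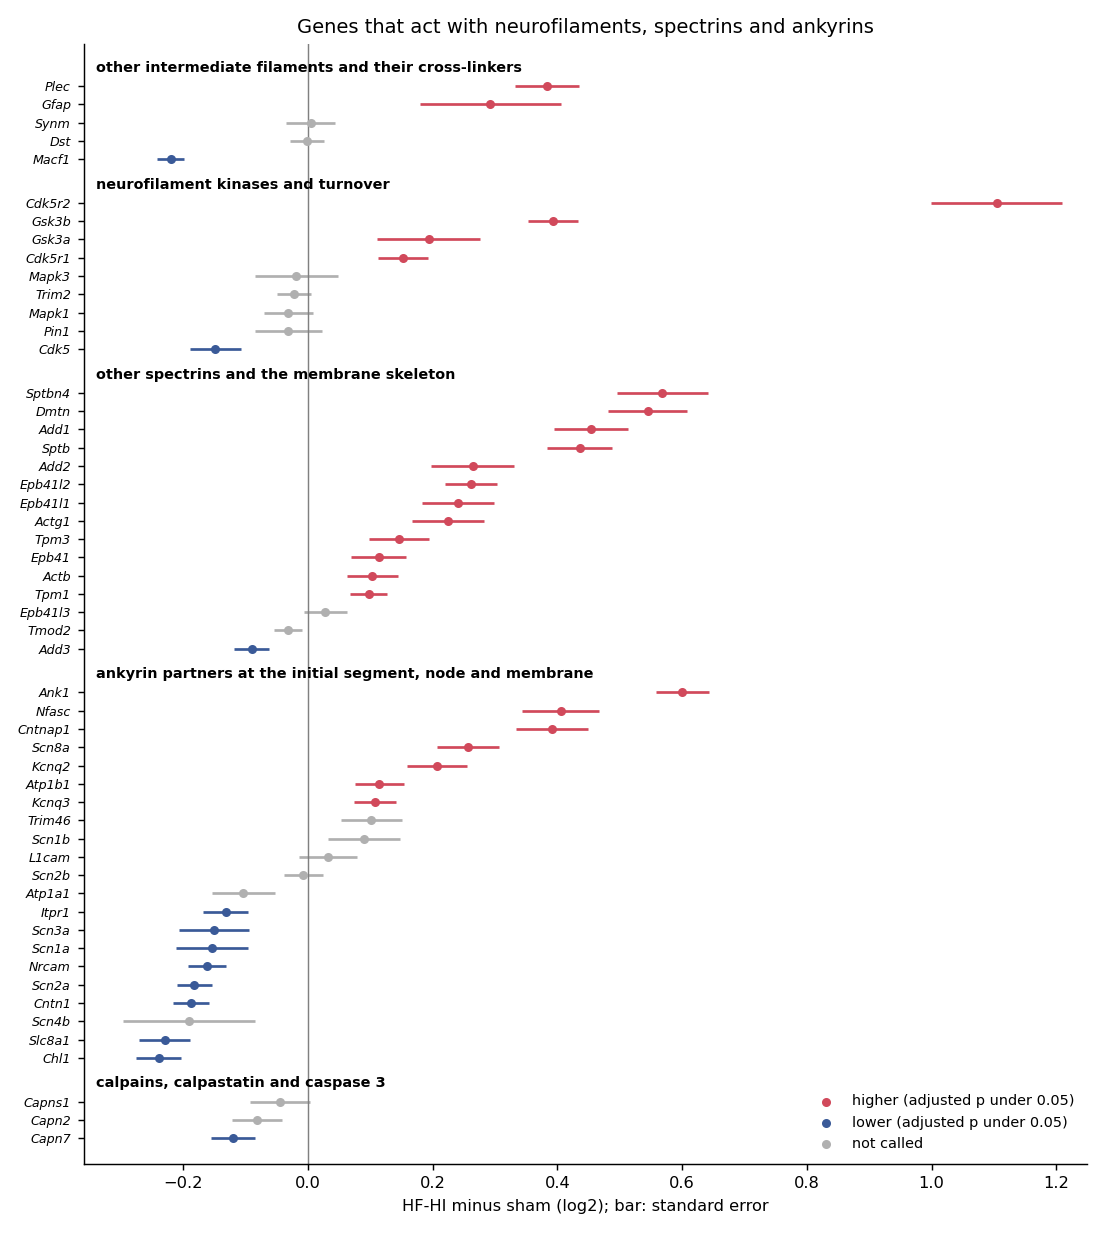
HF-HI minus sham differences (log2, horizontal axis) with standard errors as bars for related genes, by list. Red points were called higher, blue lower and grey not called. Membrane-skeleton genes lie mostly to the right of 0, while ankyrin partners spread to both sides.

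Markers of the cells in the samples moved too, beside 32.6% of all genes called higher and 33.6% called lower. Of the 7 neuron markers, 5 were higher and 1 lower in HF-HI. Their mean level ran from 12.58 to 12.72 in sham and from 12.88 to 13.00 in HF-HI, without overlap. Rbfox3 (0.83) and Stmn2 (0.70) rose most, and the differences of the other neuron markers ran from −0.097 to 0.15. Of 4 cortical excitatory neuron markers tested, 3 rose, Slc17a7 and Tbr1 among them, with a mean level of 9.81 to 10.28 in sham and 10.49 to 10.85 in HF-HI, also without overlap. The median over all genes of each library did not overlap between groups either, at 9.68 to 9.72 in sham and 9.73 to 9.76 in HF-HI. Layer 5 markers, of the cells richest in neurofilament, gave 1 higher and 1 lower of 4 (9.94 to 10.20 in sham, 9.69 to 10.14 in HF-HI). Upper-layer markers gave 2 higher of 5, layer 6 markers none of 3 and inhibitory markers 2 higher of 5. Among the other cells, 3 astrocyte markers rose and 2 fell of 8, 2 oligodendrocyte markers rose of 8, 1 microglial marker rose and 2 fell of 3, and 1 endothelial marker rose and 1 fell of 2. Of 7 striatal markers 1 fell, and the thalamic and choroid plexus lists, with 1 gene tested in each, gave no call. With the GC trend removed, neuron markers gave 4 higher and 1 lower, excitatory markers 4 higher and layer 5 markers 2 higher and 1 lower. Upper-layer and layer 6 markers then gave 1 higher each and inhibitory markers 2 higher. Astrocyte markers gave 3 higher and 3 lower, oligodendrocyte markers 2 and 2, and endothelial markers 1 and 1. Microglial and striatal markers gave 2 lower each. The part of these shifts in the changes of the 8 genes was not tested.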

How the data were processed

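RNA-seq libraries of mouse cortex (10 sham, 11 HF-HI) were aligned to mm10 with STAR, counted per transcript with eXpress, and normalized and variance-stabilized with DESeq2 by the authors. The study's methods name a default threshold on the mean of normalized counts and Cook's distance as filters, without its value. The versions of STAR and eXpress and the annotation are not given in the sources used here. The deposited values are on a log2 scale, 1 per gene and library. They are not counts, so the number of reads behind a value is unknown. The spacing of low values gave relative depths of 0.580 to 1.26 in sham and 0.548 to 1.64 in HF-HI (p = 0.0543, permutation test). The labels do not say that libraries come from separate mice, so p-values measure the spread between libraries. With the spacing of low values taken as 1 read, the closest libraries relative to sampling noise were HF-HI replicates 6 and 7. Their distance was 2.13 times that noise.

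Groups came from sample titles. limma 3.58.1 (lmFit, eBayes with trend) was fitted on all 5544 genes with injury as the only factor. Gene pairs within libraries were compared by permutation. Tested on simulated data, the fit found 197 of 200 changed genes and made 12 false calls. When the same GC trend was simulated in every HF-HI library there were 2228 false calls, and 13 once lowess (span 0.3) had removed it. The changed genes were drawn regardless of GC, so this cannot show how the removal treats true changes that go with GC. Symbols, coordinates, lengths and GC content came from GENCODE on GRCm38 (5541 genes matched to a symbol, 5539 with GC content), and promoters from RefSeq. R 4.3.3, Python 3.11.15, scipy 1.17.1 and statsmodels 0.14.6 were used.

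Related genes were named if called with an absolute log2 difference of at least 0.25, if highest or lowest of their list, or as the largest difference not called, and a few genes that this rule names are not reported here. The members and lists were chosen with earlier results of these data known. Alternatives were thresholds, variance model, rank test, scaling, a filter on low genes, GC, length and depth terms, replicate numbers as a block, and each library left out. Same-numbered sham and HF-HI libraries did not deviate together (r from −0.31 to 0.36, 4 of 10 over 0.1), so replicate numbers were not treated as pairs.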

Additional observations from a re-analysis of the deposited data

How the results depend on the processing

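The calls and directions of Ina, Nefh, Sptan1 and Ank3 held under all alternatives that gave a value and with each of the 21 libraries left out, except that Sptan1 and Ank2 did not reach a minimum difference of 0.25. Nefh is absent where the lowest quartile of genes was removed. Nefm was not called with GC and length trends removed (0.18) or with GC removed and the replicate block (0.22, adjusted p = 0.0591), nor Ank2 with GC removed (−0.074) or with GC removed and the block (−0.055, adjusted p = 0.131). Sptbn1 was called with GC removed (0.079) and with relative depth as a covariate, chosen after seeing the data (0.068), and lay at −0.0040 with library medians centred. Nefl, never called, was above 0 with GC and length removed (0.023) and with depth (0.014), and ran from −0.027 to 0.017 with 1 library left out.

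A minimum difference of 0.25 left 1433 genes called (987 higher, 446 lower), none of the lower members, and 15 related genes higher and 0 lower. Members called lower numbered 1 with GC removed, with or without the block. Related genes called higher numbered 15 with GC removed, 16 with GC and the block and 14 with GC and length removed, where 19 were lower. Centring medians gave 1448 genes higher and 2376 lower, and quantile normalization 1547 and 2242, with the median of all genes shifted by −0.052 and −0.037. No correlated pair was left in HF-HI with GC removed. Nefh relative to Nefm shifted by 0.064 to 0.15 with 1 library left out, and was called (adjusted p = 0.0476, permutation test) without HF-HI replicate 9. The replicate block alone gave 3498 genes called and changed no call among the 8 genes or 6 pairs. No sham library correlated best with its own number. The cause of these changes was not tested. Depth in reads is unknown, so no limit of detection is given.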
